A study of Drosophila melanogaster with 4 samples.

Results

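The antioxidant enzymes and ferritin subunits of the early fly pupa were followed in Dop1R2 RNAi and control animals, which were compared to find the transcripts that change when the receptor is reduced. The set holds 10 genes, found by their names in the probe annotation of the array, and 8 of them are carried by at least 1 probe set of their own, out of 10844 genes with such a probe set. These 8 genes are Sod2, Cat, Trxr1, Trx-2, cnc, Keap1, Fer1HCH and Fer2LCH, read by 11 probe sets. Trx-2 appears in the annotation as Trx2, and was matched by its gene identifier. No probe set matched the names Sod1 and Jafrac1, which are not analysed here.

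Dop1R2 RNAi pupae carried 1 copy of a hairpin against the dopamine receptor Dop1R2 and 1 copy of the Act5C-Gal4 driver, which is active in all tissues (UAS-dsDop1R2/+;Act5C-Gal4/+). The figure legends of the study write this genotype with w1118 as well. Control pupae carried the same driver without the hairpin (w1118;Act5C-Gal4/+), as the sample labels and the methods give it. Several figure legends of the study, including that of the array results, instead give controls with the hairpin and a balancer chromosome. Which of these genotypes the control arrays carry could not be settled here. Both groups were raised at 29 °C, and each of the 4 Affymetrix arrays, 2 per group, was hybridized with RNA from 10 to 20 pooled whole pale pupae labelled as a biological replicate. The study used 2 insertions of its own hairpin, and which of them was hybridized is not given in the sources used here. The transcript of Dop1R2 itself was not analysed here, as no probe set carries its name alone, so its level could not be checked against the labels.

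Superoxide dismutases turn superoxide into hydrogen peroxide, which catalase and the peroxiredoxins then remove. Flies have no glutathione reductase of their own, so thioredoxin reductase (Trxr1) and thioredoxin keep both the thioredoxin and the glutathione pools reduced. The transcription factor cnc, the fly relative of mammalian Nrf2, is held back by Keap1 and switches on detoxifying genes when released. Ferritin, built from a heavy chain (Fer1HCH) that oxidizes iron and a light chain (Fer2LCH), stores iron in a form that cannot feed radical chemistry.

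Signals are linear intensities, 1 for each probe set and array, which the authors scaled alike on all arrays. The median signal lay between 43.4 and 45 on all 4 arrays. Of 13966 probe sets, 8749 reached the 40th percentile of the array on at least 2 of 4 arrays and were tested with limma on log2 signals, with p adjusted over all of them by the Benjamini-Hochberg method. At an adjusted p under 0.05, 1.38% of the tested probe sets were higher and 0.103% lower in Dop1R2 RNAi pupae, together 1.49%. The smallest change that passed was 2.39-fold, and 0.333 is the smallest two-sided p that an exact permutation test allows with 2 arrays a group. Of 6 markers of pupal cuticle, 3 rose at adjusted p under 0.05 from limma, 5 had log2 fold changes above 0 and 1 had -0.59, and their summed signal was 2527 and 3201 in Dop1R2 RNAi pupae, against 2364 and 1469 in controls. The part of developmental stage in the values below was not tested. In RNA from whole animals, fewer cells of a type and less RNA per cell cannot be told apart.

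Catalase had a lower signal in Dop1R2 RNAi pupae, at 0.685 times the control level, while thioredoxin reductase and 1 probe set of cnc had a higher one, at 1.79-fold and 1.91-fold. Both ferritin subunits, Sod2 and Trx-2 lay within 1.16-fold of controls, and Keap1 was too dim to be tested. None of these differences passed the test over all probe sets, in any of the 7 members bright enough for it. Counts were 0 in both directions after adjustment in limma and by the t-test of the methods, and without adjustment 2 members were higher (7.53% of all tested probe sets) and 1 was lower (5.51%) at a limma p under 0.05. That t-test, without adjustment, gave a p under 0.05 for 3 of the 7 members, against 9.03% of all tested probe sets. In limma, the 3 with a low unadjusted p were 42.9% of the tested members, against 13.0% of all tested probe sets. These 3, the same by the t-test, were Trxr1 and cnc, with signals above those of controls, and Cat, with signals below them. The groups did not overlap in 5 of the 7 members, against 45.1% of all tested probe sets. In 4 of the 5 both knockdown arrays were above both controls (21.1% of all tested probe sets) and in 1 below (24.0%). With single arrays left out, the share of all tested probe sets that passed was 7.45% without Dop1R2 RNAi replicate 1, 3.22% without replicate 2, 0.400% with control replicate 1 left out and 0.309% with the other control left out, and it was 1.61% with replicate number as a block and 1.10% without the trend of limma. Trxr1, in the first of these, was the only member to pass in any of them. The median log2 fold change was 0.18 over the tested members and -0.04 over all tested probe sets.

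**Figure D1:**
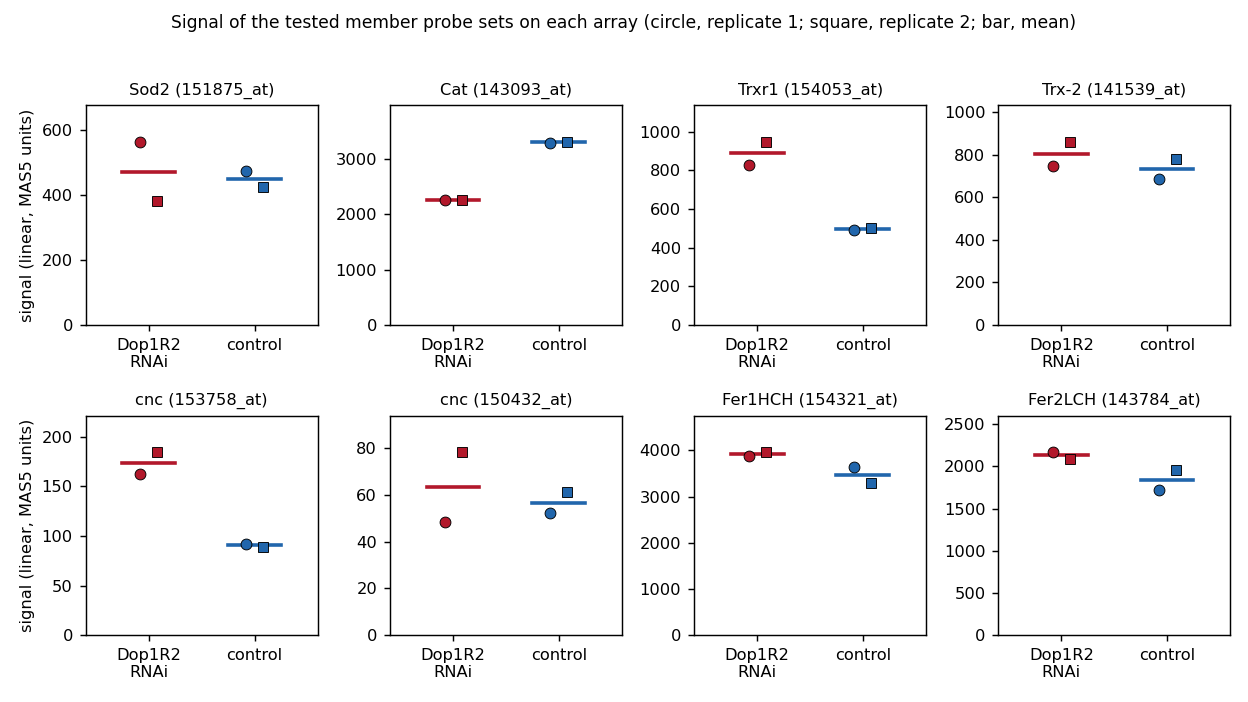
Signal (linear, in Microarray Suite units, each axis from 0) of the 8 tested probe sets on each array, with Dop1R2 RNAi in red and control in blue; circles are replicate 1, squares replicate 2 and bars the mean of 2 arrays. Cat is lower and Trxr1 and the first cnc probe set are higher on both Dop1R2 RNAi arrays, while Sod2, Trx-2 and the second cnc probe set overlap between groups.

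Sod2 is the manganese superoxide dismutase of mitochondria. Its signal was 562 and 380 in Dop1R2 RNAi pupae, against 473 and 423 in controls. The 2 knockdown arrays spanned both control arrays, so the groups overlapped. The log2 fold change was 0.05 (standard error 0.26, adjusted p = 0.956 from limma), and its 95% interval reached from 0.677-fold to 1.58-fold. The sign of this value was set by single arrays, at -0.24 without Dop1R2 RNAi replicate 1 and -0.03 without control replicate 2. Sod3, the secreted superoxide dismutase, has 3 probe sets, and the brightest read 383 and 561 in Dop1R2 RNAi pupae, against 339 and 419 in controls (log2 fold change 0.30, adjusted p = 0.666 from limma). The other two had log2 fold changes of -0.34 and -0.10, so the probe sets of Sod3 differ in sign.

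Cat is the catalase of peroxisomes, which breaks hydrogen peroxide into water and oxygen. Its signal was 2263 and 2254 in Dop1R2 RNAi pupae, against 3286 and 3308 in controls. Catalase averaged 2259 ± 6.07 in Dop1R2 RNAi pupae and 3297 ± 16.1 in controls (mean ± SD over 2 arrays in each group). Arrays of 1 group differed by 0.01 on the log2 scale in both groups, while the closest arrays of different groups differed by 0.54. The knockdown level was 0.685 times that of controls (log2 fold change -0.55 with a standard error of 0.16, 95% interval -0.92 to -0.17, adjusted p = 0.230 from limma). The unadjusted p was 0.0110 from limma, a value that 4.80% of all tested probe sets reached or went below. The t-test named in the methods, which uses the spread of each probe set alone, gave an unadjusted p of 1.09e-04 for Cat and an adjusted p of 0.310. In limma the spread of Cat itself counts with 2 degrees of freedom and that of the other probe sets with 4.95.

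Trxr1 encodes thioredoxin reductase, which uses NADPH to regenerate thioredoxin. Its signal was 829 and 947 in Dop1R2 RNAi pupae, against 491 and 500.0 in controls. The mean was 888 ± 84.1 in Dop1R2 RNAi pupae and 495 ± 6.47 in controls (mean ± SD over 2 arrays in each group). Both knockdown arrays were above both controls, and the smallest gap between groups was 0.73 on the log2 scale, against 0.19 between the knockdown arrays and 0.03 between the controls. The level was 1.79-fold that of controls (log2 fold change 0.84 with a standard error of 0.20, 95% interval 0.36 to 1.32, adjusted p = 0.151 from limma). An unadjusted p as small as that of Trxr1, 0.00437, was found in 2.89% of tested probe sets. Trxr1 passed in 1 of 13 alternatives, without Dop1R2 RNAi replicate 1 (log2 fold change 0.94, adjusted p = 0.0297), where 7.45% of tested probe sets passed. Over the other 12 its adjusted p was 0.116 to 0.642.

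Trx-2 is the main cytosolic thioredoxin, the substrate of Trxr1. Its signal was 746 and 860 in Dop1R2 RNAi pupae, against 685 and 779 in controls. The groups overlapped, and the log2 fold change of 0.13 (with a standard error of 0.21, adjusted p = 0.826 from limma) had a 95% interval of 0.782-fold to 1.54-fold. Whether reductase and thioredoxin differed in their change was not tested, and their intervals overlap.

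The gene cnc has 4 probe sets of its own, and which part of the gene or which isoform each one reads was not analysed here. The brightest, 153758_at, had a signal of 162 and 184 in Dop1R2 RNAi pupae, against 91.7 and 89.3 in controls. On average it was 173 ± 15.8 in Dop1R2 RNAi pupae and 90.5 ± 1.71 in controls (mean ± SD over 2 arrays in each group). Both knockdown arrays stood above both controls by at least 0.82 on the log2 scale, and arrays of 1 group differed by at most 0.19. The level was 1.91-fold that of controls (log2 fold change 0.93 with a standard error of 0.22, 95% interval 0.40 to 1.46, adjusted p = 0.151 from limma), the largest value among the tested member probe sets. Its adjusted p stayed above the threshold in all 13 alternatives, from 0.0810 without Dop1R2 RNAi replicate 1 to 0.507 without control replicate 1.

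The other cnc probe sets did not show the same values. The second tested one, 150432_at, read 48.5 and 78.1 in Dop1R2 RNAi pupae, against 52.1 and 61.1 in controls, with overlapping groups and a log2 fold change of 0.13 (95% interval -0.61 to 0.86, adjusted p = 0.897 from limma). Its interval overlaps that of 153758_at, and the difference between the 2 probe sets was not tested. The 2 dim ones were not tested: 151078_at read 25.4 and 1.57 in Dop1R2 RNAi pupae, against 19.1 and 14.5 in controls, and 150433_at read 3.18 and 16.2 in Dop1R2 RNAi pupae, against 0.970 and 6.05 in controls. Arrays of the same group differed there by up to 4.01 on the log2 scale.

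Keap1, the adaptor that hands cnc to a ubiquitin ligase, was not tested, since its signal was below the 40th percentile on every array. It read 20.6 and 21.8 in Dop1R2 RNAi pupae, against 14.9 and 24.9 in controls, and the control arrays lay on either side of the knockdown arrays.

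**Figure D2:**
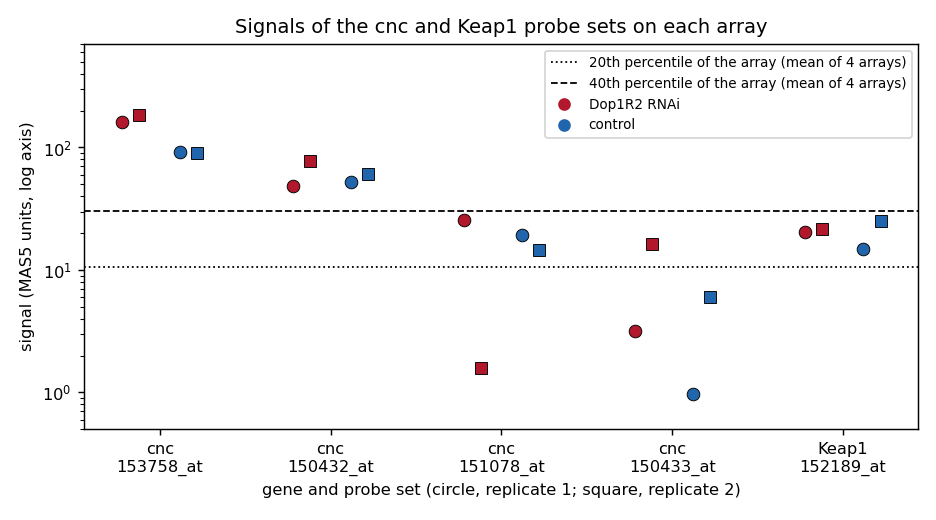
Signal (Microarray Suite units, logarithmic axis) of the 4 cnc probe sets and the Keap1 probe set on each array, Dop1R2 RNAi in red and control in blue, with dotted and dashed lines at the 20th and 40th percentile of the arrays. Only 153758_at separates the groups, and 151078_at, 150433_at and Keap1 lie below the 40th percentile line.

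The ferritin genes Fer1HCH and Fer2LCH lie next to each other on the same chromosome arm, with 0 protein-coding genes between them in the reference annotation. Fer1HCH read 3872 and 3963 in Dop1R2 RNAi pupae, against 3637 and 3306 in controls. Fer2LCH read 2168 and 2090 in Dop1R2 RNAi pupae, against 1720 and 1953 in controls. Both knockdown arrays were above both controls for each subunit, by only 0.09 and 0.10 on the log2 scale at the closest, less than the 0.14 and 0.18 by which the control arrays differed from each other. The log2 fold changes were 0.18 (standard error 0.16, adjusted p = 0.662 from limma) for the heavy chain and 0.22 (standard error 0.18, adjusted p = 0.627 from limma) for the light chain. Their 95% intervals were 0.875-fold to 1.46-fold for Fer1HCH and 0.871-fold to 1.55-fold for Fer2LCH, so a change beyond 1.55-fold in either direction lies outside them.

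**Figure D3:**
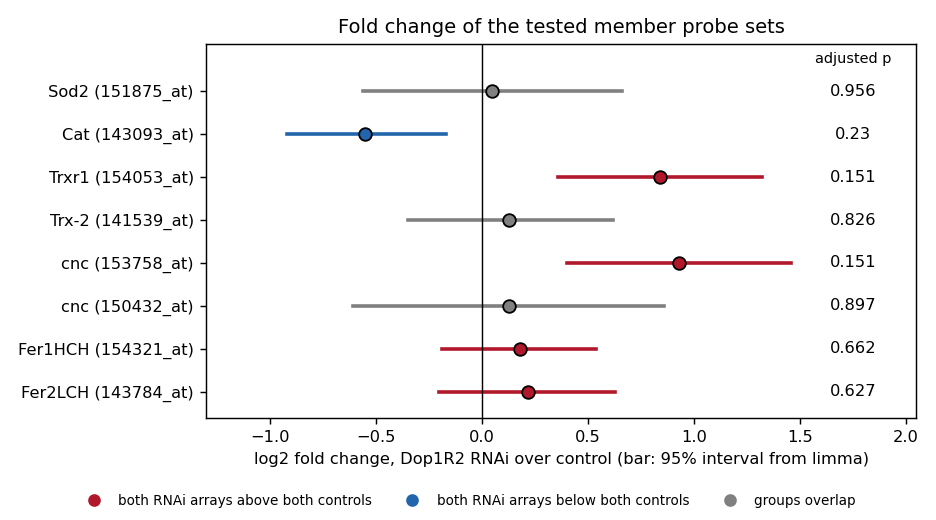
Log2 fold change (Dop1R2 RNAi over control) of the 8 tested probe sets of the members with its 95% interval from limma and the adjusted p at the right. The intervals of Cat (-0.92 to -0.17), Trxr1 (0.36 to 1.32) and cnc 153758_at (0.40 to 1.46) lie on 1 side of 0, and no adjusted p is under 0.05.

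The genes around these members were read from a list of 61 others that handle peroxides, thiols, NADPH and metals. Of these, 49 have a probe set of their own and 45 were tested. One gene, Irc, rose (2.22% of the list, against 1.38% higher over all tested probe sets) and 0 fell at adjusted p from limma. Without adjustment, 5 genes were higher and 4 lower at a p under 0.05 (20% of the list in all, against 13.0%). The log2 fold change was below 0 for 31 of 45 genes and above 0 for 31.1%, against 46.1% above 0 among all tested probe sets, and the median was -0.17, against -0.04 over all tested probe sets. The count below 0 was 27 without control replicate 1 (median -0.12) and 27 without Dop1R2 RNAi replicate 2 (median -0.07).

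**Figure D4:**
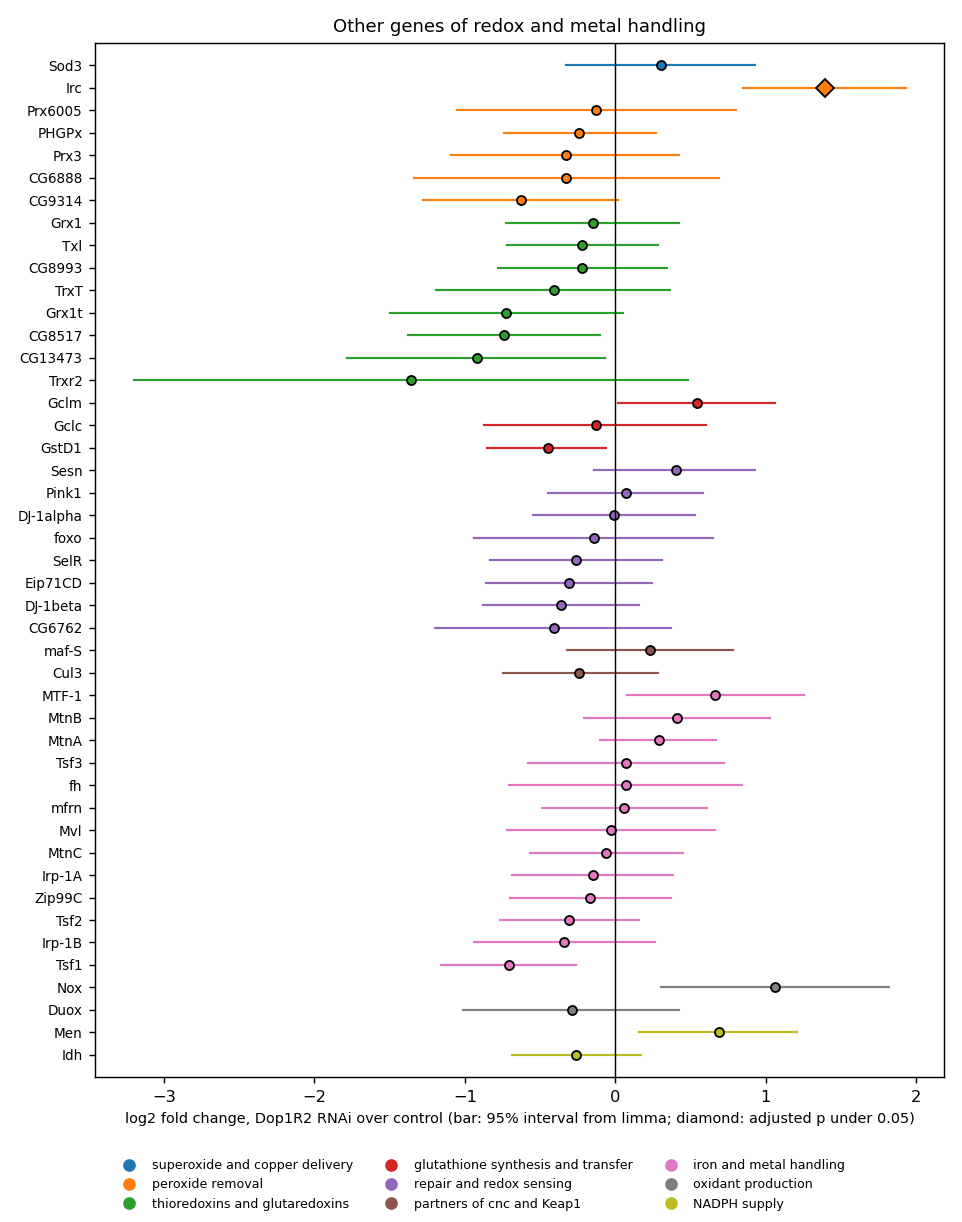
Log2 fold change (Dop1R2 RNAi over control, horizontal axis) of the 45 tested genes of the wider list by role, with 95% intervals from limma; 1 gene, Irc, is drawn as a diamond (adjusted p under 0.05). All 8 thioredoxin and glutaredoxin genes of this list, which does not hold the members Trxr1 and Trx-2, lie left of 0.

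Peroxide removal outside the members was led by Irc, the immune-regulated catalase, a secreted enzyme of the gut. Irc read 476 and 582 in Dop1R2 RNAi pupae, against 189 and 213 in controls, a rise of 2.62-fold with no overlap (log2 fold change 1.39 with a standard error of 0.23, adjusted p = 0.0402 from limma). The call was lost when control replicate 1 or control replicate 2 was left out (log2 fold change 1.30 and 1.48). It was also lost with dim probe sets kept in the fit (adjusted p = 0.0548 from limma) and with no trend (0.0890 from limma). The t-test of the methods gave Irc an unadjusted p of 0.0147, and 9.03% of all tested probe sets had one under 0.05. Its adjusted p from that t-test was 0.494, but 0 of all tested probe sets passed there. The 6 midgut markers with a probe set summed to 313 and 257 in Dop1R2 RNAi pupae, against 397 and 399 in controls, with 4 of the 6 too dim to be tested. The 2 tested ones lay on opposite sides of controls without overlap, at log2 fold changes of -0.56 and 1.27, and neither passed. The part of gut tissue in the value of Irc was not tested.

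The peroxiredoxins Prx6b, CG12896 and Prx6c share 1 probe set, so that their signals cannot be told apart, and it is not counted in the list. It read 1068 and 974 in Dop1R2 RNAi pupae, against 556 and 468 in controls, a log2 fold change of 1.00 (adjusted p = 0.0926 from limma). Its log2 fold change was 0.93 and 1.07 without Dop1R2 RNAi replicate 1 or 2, and 1.12 and 0.87 without control replicate 1 or 2. CG9314, a further catalase gene, read 165 and 159 in Dop1R2 RNAi pupae, against 313 and 202 in controls (log2 fold change -0.63, adjusted p = 0.389 from limma). Its log2 fold change was -0.32 without control replicate 1 and -0.95 without control replicate 2. Control replicate 1 was the highest array for 4 of the 6 tested peroxide genes (66.7%). The other 4 tested peroxide genes, Prx3, Prx6005, CG6888 and PHGPx, had overlapping groups.

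All 8 tested genes of the thioredoxin and glutaredoxin group of the wider list had log2 fold changes below 0, and 0 of them passed. The values ran from -1.36, for the dim Trxr2, to -0.15. The members Trxr1 and Trx-2, which are not in this group, had log2 fold changes of 0.84 and 0.13. CG8517 read 246 and 291 in Dop1R2 RNAi pupae, against 551 and 362 in controls (log2 fold change -0.74, adjusted p = 0.328 from limma). CG13473, another thioredoxin-like gene, read 30.1 and 47.3 in Dop1R2 RNAi pupae, against 91.5 and 56.0 in controls (log2 fold change -0.92, adjusted p = 0.356 from limma). Control replicate 1 was the highest of the 4 arrays for 6 of these 8 genes (75.0%), against 28.1% of all tested probe sets.

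Without that array the log2 fold change was -0.44 for CG8517, -0.57 for CG13473 and -0.32 for the glutaredoxin Grx1t, which had -0.73 with it. TrxT, the thioredoxin of the testis, read 122 and 155 in Dop1R2 RNAi pupae, against 244 and 136 in controls, again with control replicate 1 apart. A list of 10 genes of the male germline, drawn up after these values were seen, summed to 2297 and 2838 in Dop1R2 RNAi pupae, against 5541 and 3061 in controls. Control replicate 1 was highest for 8 of the 10, and 3 of the 10 (twe, can and aly) were too dim to be tested. The part of male tissue in these values was not tested. For Trxr2 the low array was a knockdown one: it read 6.61 and 31.3 in Dop1R2 RNAi pupae, against 40.8 and 33.4 in controls. The signal of 6.61 was at percentile 14.4 of its array, below the 40th percentile of the filter. The log2 fold change of Trxr2 was -1.36, or -0.24 without Dop1R2 RNAi replicate 1, and -0.48 with 32 added to all signals.

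Genes of glutathione supply and use differed in sign. Gclm, the modifier subunit of the enzyme that starts glutathione synthesis, read 206 and 216 in Dop1R2 RNAi pupae, against 150.0 and 140 in controls (log2 fold change 0.54, adjusted p = 0.365 from limma). Gclc, the catalytic subunit, had overlapping groups and a log2 fold change of -0.13 (adjusted p = 0.892 from limma). GstD1, a glutathione S-transferase widely used to report cnc activity, read 2995 and 2873 in Dop1R2 RNAi pupae, against 4356 and 3698 in controls (log2 fold change -0.45, 95% interval -0.85 to -0.06, adjusted p = 0.328 from limma). Its values were thus below controls on both arrays, where those of cnc 153758_at were above and those of cnc 150432_at overlapped. The activity of cnc was not tested. Of the partners of cnc and Keap1, maf-S was above both controls on both knockdown arrays, with a log2 fold change of 0.23 (adjusted p = 0.698 from limma). Cul3 was below both controls on both, with a log2 fold change of -0.24 (adjusted p = 0.675 from limma). Groups did not overlap in 45.1% of all tested probe sets.

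Among oxidant producers and NADPH suppliers, the NADPH oxidase Nox read 158 and 236 in Dop1R2 RNAi pupae, against 73.5 and 116 in controls (log2 fold change 1.06 with a standard error of 0.32, adjusted p = 0.246 from limma). A second Nox probe set, too dim to be tested, read 12.5 and 22.9 in Dop1R2 RNAi pupae, against 11.7 and 9.47 in controls. Over the alternatives, the log2 fold change of the tested Nox probe set ran from 0.73, without control replicate 1, to 1.39, without control replicate 2. Men, the malic enzyme that makes NADPH, read 372 and 442 in Dop1R2 RNAi pupae, against 243 and 261 in controls (log2 fold change 0.69, adjusted p = 0.274 from limma). The dimmer Men probe set had overlapping groups and a log2 fold change of 0.32. Duox and Idh had log2 fold changes of -0.29 and -0.26 (adjusted p = 0.708 and 0.568 from limma).

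Of 13 tested genes of iron and metal handling, 0 passed, 6 had log2 fold changes above 0 and 7 below, and the median was -0.03. Tsf1, the transferrin that carries iron in the haemolymph, read 967.5 and 974.7 in Dop1R2 RNAi pupae, against 1476 and 1712 in controls (log2 fold change -0.71, 95% interval -1.16 to -0.26, adjusted p = 0.190 from limma). Tsf1 thus lay on the other side of controls from the ferritin subunits, whose intervals include 0. MTF-1, the metal-responsive transcription factor, read 181 and 199 in Dop1R2 RNAi pupae, against 104 and 138 in controls (log2 fold change 0.66, adjusted p = 0.335 from limma), while its dim second probe set read 11.1 and 12.7 in Dop1R2 RNAi pupae, against 21.1 and 13.2 in controls. The metallothioneins MtnA, MtnB and MtnC had log2 fold changes of 0.29, 0.41 and -0.06 (adjusted p = 0.492, 0.540 and 0.931 from limma). The groups overlapped for MtnB and MtnC. Irp-1A and Irp-1B, genes named as iron regulatory proteins, had log2 fold changes of -0.15 and -0.34 (adjusted p = 0.810 and 0.592 from limma). Fat body is a tissue rich in transferrin, and 4 of its 7 listed markers have a probe set. Their summed signal was 20059 and 20695 in Dop1R2 RNAi pupae, against 20319 and 21070 in controls, and the groups overlapped. The part of fat body in the value of Tsf1 was not tested. Summed haemocyte markers were 451 and 455 in Dop1R2 RNAi pupae, against 560 and 653 in controls, with Hml, PPO1 and eater too dim to be tested. Of the 5 tested haemocyte markers, 3 had log2 fold changes above 0 and 2 below, with a median of 0.34 and a lowest value of -1.05, so the sum and the median differ in sign. None passed, and the part of haemocytes in these values was not tested.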

How the data were processed

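RNA of pooled pale pupae was measured on 4 Affymetrix DrosGenome1 arrays. Each deposited intensity is linear and belongs to 1 probe set on 1 array. The authors computed it with Microarray Suite, which the processing notes of the submitters list as MAS5. Its version was not given in the sources used here. Of 14010 probe sets, 44 controls of the maker were left out, and log2 of the others was taken as deposited. In the annotation 12442 probe sets carry 1 gene name, 327 several and 1197 none. Only probe sets with 1 name count for a gene, which the brightest one represents.

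Groups were compared with limma 3.58.1 in R 4.3.3 (lmFit, eBayes with a trend, 2 residual and 4.95 prior degrees of freedom). The fit was tested on simulated data. The number of arrays limits the precision.

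The members and lists were chosen with earlier results of these data known. Named were all probe sets of the members and, of the wider list, the gene that passed and those with the largest changes among genes whose groups do not overlap, up to 12. Sod3, Sesn, Gclc, Prx6b, CG12896, Prx6c, TrxT, Duox, Idh, maf-S, Cul3, MtnA, MtnB, MtnC, Irp-1A, Irp-1B and the peroxide genes with overlapping groups lie outside that rule. Marker lists were fat body, haemocytes, midgut, muscle, neurons, salivary gland, pupal cuticle and, added after values were seen, male germline. Names came from RefSeq's table for Release 6 plus ISO1 MT.

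Also tried were keeping dim probe sets, a stricter filter (60th percentile), adding 32 to all signals, a floor at the 20th percentile, quantile normalization, median centring, no trend, replicate number as a block, the methods' t-test, each array left out and every probe set counted on its own.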

Additional observations from a re-analysis of the deposited data

How the results depend on the processing

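No member passed under any alternative but one: 1 of 7, Trxr1, passed without Dop1R2 RNAi replicate 1, so that the count ran from 0 to 1 with 1 array left out. Of 103 member values under the alternatives, 99 kept direction and call. The 3 that changed sign were Sod2 without Dop1R2 RNAi replicate 1 (-0.24) and without control replicate 2 (-0.03), and cnc 150432_at without Dop1R2 RNAi replicate 2 (-0.22), all uncalled. With 1 array left out Sod2 ran from -0.24 to 0.33 and cnc 150432_at from -0.22 to 0.47. The wider list had 1 call, Irc, which became 0 with dim probe sets kept, without the trend and by the methods' t-test, and 0 to 2 with 1 array left out. Over all tested probe sets, 121 were higher and 9 lower. These counts were 75 and 3 with dim probe sets kept, and 0 and 0 by the methods' t-test after adjustment (467 and 323 at unadjusted p under 0.05). With 1 array left out they ran from 27 to 357 higher and from 0 to 295 lower. Those fits take the spread of the single remaining array from the other group. Replicate numbers are not stated to mark a shared batch, and the correlation of same-numbered deviations was 0.151. With replicate number as a block, 0 members and 1 gene of the wider list passed, and 1.61% of probe sets did, so the pairing changed no call of either list. The Gapdh control probes gave a 3'/5' ratio of 3.88 and 3.90 in Dop1R2 RNAi pupae, against 4.61 and 3.97 in controls. For eIF-4a the ratio was 3.98 and 2.82 in Dop1R2 RNAi pupae, against 4.59 and 4.24 in controls, and for actin it was 2.07 for replicate 1 and 1.61 for replicate 2 of both groups. The part of RNA quality in the results was not tested. No detection calls were used, so signals below the 40th percentile give no order between groups.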

Other observations

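Muscle markers summed to 13249 and 8659 in Dop1R2 RNAi pupae, against 13187 and 10809 in controls, and salivary gland markers to 70.6 and 72.2 in Dop1R2 RNAi pupae, against 74.7 and 70.3 in controls, with 5 of 6 too dim to be tested. Neuronal markers summed to 137 and 102 in Dop1R2 RNAi pupae, against 141 and 164 in controls, with 3 of 6 (elav, brp and para) too dim to be tested. Of the 3 tested neuronal markers, 1 had a log2 fold change above 0 and 2 below, and none passed. In the repair and redox sensing group, 0 of 8 tested genes passed, 2 had log2 fold changes above 0 and 6 below, and the median was -0.20. The highest value, 0.40, was that of Sesn, the sestrin that restrains growth under stress, and the lowest was -0.41. Sesn read 153 and 145 in Dop1R2 RNAi pupae, against 106 and 120 in controls (adjusted p = 0.492 from limma).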
